A study of Rattus norvegicus with 862 samples.

Results

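Genes of the cytosolic ribosomal proteins were described in the rat heart across the compounds of the DrugMatrix collection. A gene was a member when its symbol in the platform's probe annotation started with Rpl or Rps followed by a digit. Genes of the Rps6k kinase family and the 2 symbols of pseudogenes, Rpl37-ps2 and Rps4x-ps1, were left out. Of the 14218 genes that a probe set of a single symbol measured, 46 were members, and each was read from its probe set of highest mean. No measured value entered the choice of members beyond that mean, and no filter on low levels was applied, so that all 46 were tested in each comparison.

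The cytosolic ribosome is built from a small and a large subunit, each a core of ribosomal RNA with a fixed set of proteins named Rps and Rpl. The proteins are needed in equal numbers, and in rodent and human cells most of their mRNAs begin with a 5′ terminal oligopyrimidine tract, an unbroken run of C and U through which the kinase mTOR controls their translation. A few members have a second gene copy with its own tissue pattern. Rpl3l is known to be made in heart and skeletal muscle in place of Rpl3 on part of the ribosomes, and RPS27L, the relative of RPS27, is known in human cells as a target of p53. Ribosomal proteins released from stalled ribosome assembly, among them Rpl5, Rpl11 and Rpl23, are known in human and mouse cells to bind the p53 inhibitor Mdm2. A microarray measures the amount of these mRNAs and not how often they are translated.

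The hearts came from 840 male Sprague Dawley rats of the CD-IGS stock, 6 to 8 weeks old, of which 611 had been given 1 of 88 compounds and 229 a vehicle alone. A profile is 1 compound at 1 dose in 1 vehicle and route, with hearts taken after 1, 3 or 5 d in most studies. Treated rats were set against vehicle control rats of the same vehicle, route, duration and RNA extraction campaign, a run of extraction dates without a long gap. This could be done in 95 profiles, with 3 to 9 treated and 3 to 28 control rats, and 2 profiles had no such controls. All rats were of a single sex and stock, every group was a whole-heart extract, and no label gives a genetic change. The groups described most closely were rapamycin (60 mg/kg in CMC, carboxymethyl cellulose, by oral gavage, 3 and 5 d), the intravenous anthracyclines in saline at 1, 3 and 5 d (doxorubicin 3 mg/kg, daunorubicin 3.25 mg/kg, epirubicin 2.7 mg/kg and idarubicin 0.625 mg/kg), and isoprenaline (2 mg/kg in saline by subcutaneous mini-pump, 1, 3 and 5 d). They also included sulindac (132 mg/kg in corn oil, 3 and 5 d), guanethidine (132 mg/kg in CMC, 3 and 5 d), acrolein (20 mg/kg in water, 1, 3 and 5 d) and allylamine (75 mg/kg in water, 3 and 5 d), all by oral gavage, each against its own vehicle without a compound. The last 4 were picked because they held the most called members, so their counts are a description and not evidence that those compounds differ from the others. Values are log2 expression levels, on which a difference of 1 is a 2-fold difference.

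The labelled tissue was borne out by its markers, since the 12 measured heart muscle genes had a median level of 13.88 in control rats, against 5.23 for 12 liver genes and 5.02 for 8 lymphocyte genes. Of the 862 arrays, 36 stood apart, with a correlation under 0.95 to the mean array or with high liver or adipocyte genes. In bulk hearts, fewer cells of a type and less RNA per cell cannot be told apart.

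The sequence context of the 9 members that were called in 3 or more profiles, which include the paralogs Rpl3l and Rps27l, is given first, because the tract at the start of the mRNA is the shared feature by which this gene family is known. Each line holds 50 bases in the direction of transcription, 30 before and 20 from the annotated start of the transcript, taken from RefSeq on the rat build GRCr8, with the longest run of C and T in capitals. These lines were chosen after their values had been seen.
Rpl7a: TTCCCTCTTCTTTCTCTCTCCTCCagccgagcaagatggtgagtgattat
Rpl27a: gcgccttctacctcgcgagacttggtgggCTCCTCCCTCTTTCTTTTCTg
Rpl19: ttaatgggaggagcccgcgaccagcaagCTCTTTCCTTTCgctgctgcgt
Rpl23: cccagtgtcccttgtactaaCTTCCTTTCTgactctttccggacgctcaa
Rps28: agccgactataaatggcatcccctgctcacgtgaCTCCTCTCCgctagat
Rpl3l: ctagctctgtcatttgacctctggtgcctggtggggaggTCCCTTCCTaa
Rpl12: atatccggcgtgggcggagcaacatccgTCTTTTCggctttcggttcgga
Rpl3: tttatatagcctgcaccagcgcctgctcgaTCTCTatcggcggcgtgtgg
Rps27l: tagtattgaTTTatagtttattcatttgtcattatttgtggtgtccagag
The windows lie on the plus strand at chr3:30637106-30637155 for Rpl7a, chr1:172974543-172974592 for Rpl27a, chr10:83519034-83519083 for Rpl19, chr10:14258416-14258465 for Rpl3l, chr3:36661910-36661959 for Rpl12 and chr8:76443628-76443677 for Rps27l. They lie on the minus strand at chr10:83272165-83272214 for Rpl23, chr7:15311314-15311363 for Rps28 and chr7:113507971-113508020 for Rpl3. The run had 24 bases in Rpl7a, 20 in Rpl27a, 12 in Rpl19, 10 in Rpl23, 9 in Rps28 and Rpl3l, 7 in Rpl12, 5 in Rpl3 and 3 in Rps27l. In Rpl27a, Rpl19 and Rpl12 the run crossed the annotated start, in Rpl7a it began at the edge of the window and ended before the start, and in Rpl3l it began at base 10 of the transcript. Of the 46 members 41 were in the table of promoters. An unbroken run of 8 or more bases that were all C or T, read on the gene's own strand, was present in 27 of these 41 windows (65.9%) and in 6646 of 33469 windows of all genes in that table (19.9%). The median longest run was 10 bases in the members and 5 bases in all windows. An annotated start can be off by some bases, and a run is a match of letters and not a measured tract.

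In the 217 control rats with a group, 37 of the 46 members had a mean level of 10 or more. Rps29, a zinc-binding protein of the small subunit, had the highest mean at 13.71 ± 0.12 (SD, n = 217), followed by Rpl7a at 13.09 ± 0.15 and Rpl37a at 13.06 ± 0.14, both of the large subunit. The SDs of Rpl7a and Rpl37a exceeded the gap between their means. The other 9 probe sets lay lower, and the lowest means were those of Rpl28 at 4.27 ± 0.12, Rpl39l1 at 4.45 ± 0.18 and Rpl30 at 4.70 ± 0.13. Rpl28, Rpl30 and Rps13 (5.60 ± 0.20) encode core proteins of which every ribosome holds a copy, and their low level is that of the single-symbol probe set used here. A probe set's brightness depends on its probes, so the order over members is a description of probe sets. Processed pseudogene copies of ribosomal protein genes are numerous in rodent genomes, and probes that also match such a copy or a paralog could add to a member's signal, which was not tested.

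Levels varied little between rats for most members. The SD within groups of one vehicle, route, duration and campaign had a median of 0.16 over the members and of 0.20 over all genes. The members with the largest SD over control rats were Rps4y2 (0.53, levels 5.30 to 8.08), Rpl3l (0.36, levels 8.44 to 11.67), Rps27l (0.31, levels 5.08 to 7.01) and Rpl3 (0.30, levels 9.73 to 12.65). Thus 3 of these 4 were paralogs, and the other was the core partner of Rpl3l. The mean over all 46 members was 9.70 in the lowest control rat, 10.98 in the median rat and 11.16 in the highest. It averaged between 10.89 and 11.00 in the 5 extraction campaigns, and between 10.84 and 11.09 in the 20 hybridisation batches with at least 3 control rats.

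**Figure D1:**
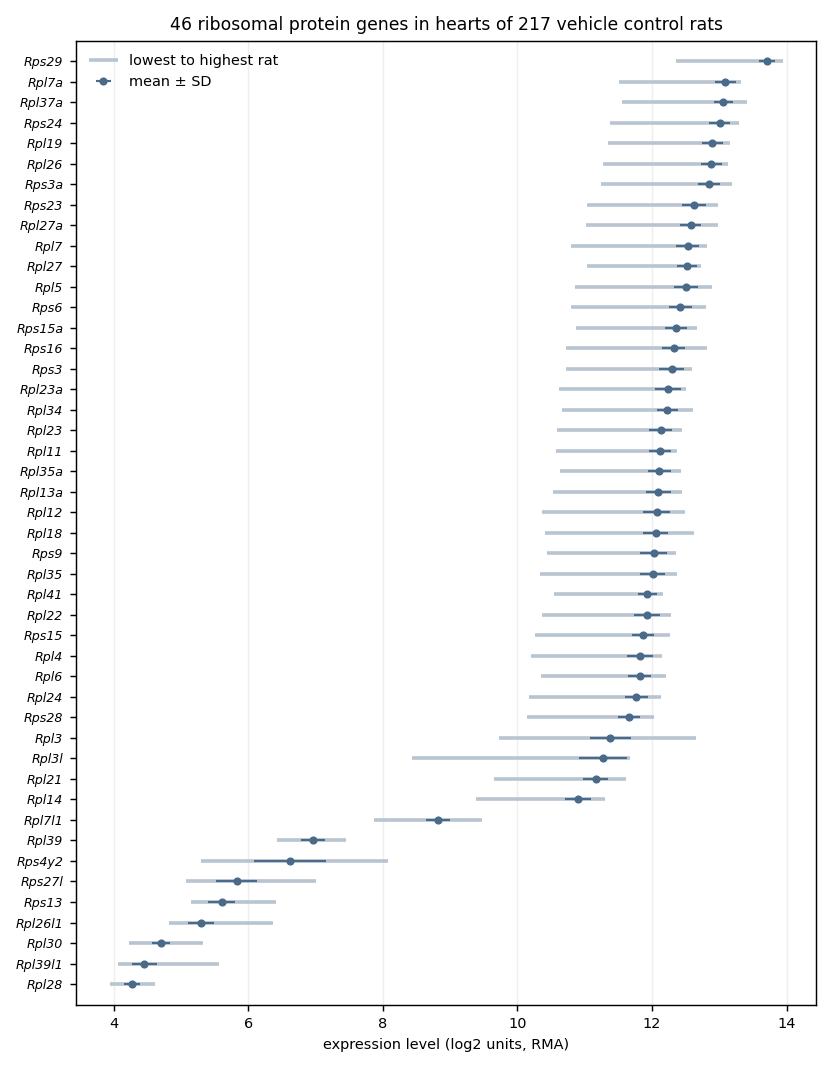
Expression level of the 46 members (rows) in the hearts of 217 vehicle control rats, in log2 units. Points and dark bars are the mean ± SD and light bars run to the lowest and highest rat; 37 members sit at 10 or above, Rps29 is highest at 13.71, and the 9 lower rows include the paralogs Rps27l, Rpl26l1 and Rpl39l1.

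Members tended to be high or low in the same control rats. After centring on the group means, the median Pearson correlation over the 1035 pairs of members was 0.74 in 212 control rats, against 0.022 over all 101068653 pairs of genes, and 0.81 over the pairs of the 37 bright members. Without the arrays that stood apart, in 203 rats, it was 0.57 over the 1035 pairs. These points share arrays, batches and normalization, so the values are a description. The members least like the rest were Rpl26l1, with a median correlation of -0.31 with the other members, Rpl39l1 (-0.27), Rpl28 (-0.09), Rps13 (0.10) and Rpl3l (0.15). All but Rpl3l were dim. The highest median correlation was that of Rpl5, at 0.84.

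Over all 95 profiles, a member was called, at an adjusted p (Benjamini-Hochberg, over all genes in limma) of at most 0.01, in 61 of 4370 tests. Of these calls, 43 were higher in treated rats (0.984% of the tests, against 0.866% over all genes) and 18 were lower (0.412%, against 1.06% over all genes). The share of higher calls was near the background and that of lower calls was below it. A new quantile normalization of all arrays gave 74 higher calls (1.69%, against 0.976% over all genes) and 11 lower (0.252%, against 1.17% over all genes). With controls of every campaign there were 53 higher calls (1.21%, against 1.22% over all genes) and 108 lower (2.47%, against 1.52% over all genes), so the share of lower calls was then above the background. Calls fell in 13 profiles, whereas 72 profiles had a called gene of any kind. In 9 of the 13, all but those of doxorubicin, epirubicin, daunorubicin and cyclophosphamide, no matched control rat came from the treated rats' own study, so treatment and study cannot be told apart. In 69 profiles the median change of the members lay within 0.1 of 0, and it ran between -0.34 after atenolol (1000 mg/kg in CMC) and 0.30 after oxybutynin (230 mg/kg in water). Neither of these 2 profiles had a called member. The median exceeded 0.2 in 4 profiles (oxybutynin, allylamine at 75 mg/kg, phenytoin at 572 mg/kg and isoprenaline at 4.2 mg/kg) and lay under -0.2 in 3 (atenolol, trimethadione at 535 mg/kg and guanethidine). The rats of oxybutynin, phenytoin, trimethadione and guanethidine, and part of those of atenolol, were of the same extraction campaign. In that campaign the mean over the 46 members had an SD of 0.25 over 34 control rats. The lowest, median and highest of these rats had 9.70, 10.95 and 11.10, so the SD rests in part on 1 rat far below the others. In the largest campaign the SD was 0.08 over 138 control rats. The matched controls of each of these profiles of oxybutynin, phenytoin, trimethadione, guanethidine and atenolol held 2 arrays that stood apart. The part of the campaign in these medians was not tested. Many profiles share control rats, so these counts are not independent of each other.

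**Figure D2:**
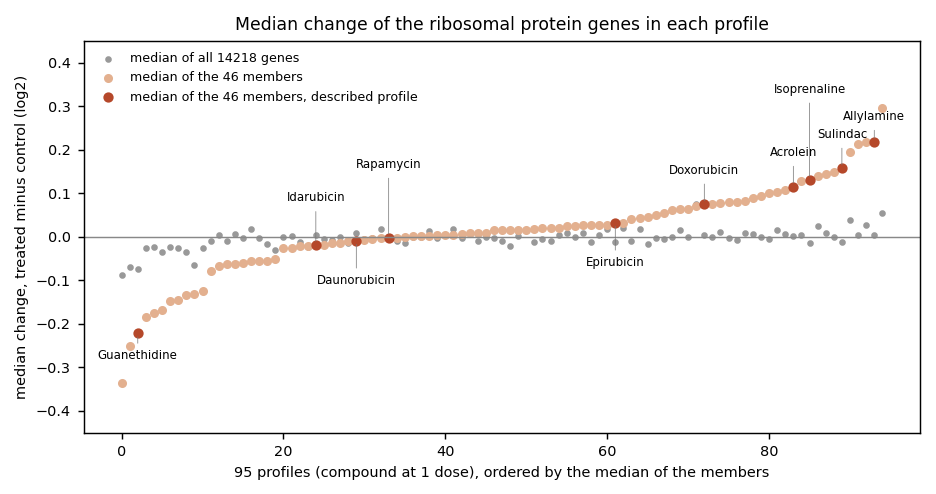
Median change of the 46 members in each of 95 profiles (treated minus vehicle control, log2), with the profiles ordered by it; grey points give the median over all 14218 genes. Dark points are the 10 profiles described in the text, between -0.22 for guanethidine and 0.22 for allylamine, and most points lie within 0.1 of 0.

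Of the members, 30 were called in at least 1 profile and 16 in none. Over all 14218 genes there were 11697 higher and 14323 lower calls. The share of all genes called in at least 1 profile was not counted. The counts per member are therefore a description and do not show that members were called more often than other genes. Rpl23, a protein of the large subunit, was called in 5 profiles, 4 of them higher, and Rps27l in 5, all higher. Rpl3 and Rps28 were each called higher in 4 profiles and lower in none. Rpl3l was called lower in 4 profiles and higher in none. Rpl12 was called in 3 profiles, and so were Rpl19, Rpl27a and Rpl7a. The pattern of Rpl23 over the 95 profiles was most like those of Rpl7a (Pearson r = 0.93), Rps6 (0.93) and Rpl37a (0.92), all of them members. That of Rps27l was most like those of Aen (0.75), Zmat3 (0.69) and Phlda3 (0.67), none of them members. These correlations are over profiles that partly share controls.

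Rapamycin, the inhibitor of mTOR, was included because mTOR acts on the mRNAs of these genes. The mean over the 46 members was 10.82, 10.98 and 11.10 in the lowest, median and highest of 6 treated rats, against 10.87, 10.96 and 11.10 in 18 control rats. The groups overlapped throughout. No member was called in either direction, where 0.556% of all genes were called higher and 0.837% lower by limma. The median change of the members was -0.002, and the changes of the muscle paralog and its partner were -0.15 for Rpl3l (SE 0.07, adjusted p = 0.291) and 0.12 for Rpl3 (SE 0.08, adjusted p = 0.498). Of 73 genes of mitochondrial ribosomal proteins, which serve the separate ribosome of mitochondria, 8 were lower and 0 higher, with a median change of -0.18. Of 40 ribosome biogenesis genes, which build ribosomes in the nucleolus, 0 were called, with a median of -0.08.

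The anthracyclines, which poison topoisomerase II and bind DNA, were each set against the same 22 control rats, so their values stand side by side and do not replicate each other. Their doses differed, and no direct comparison between them was made. Rps27l was the member with the largest rise. After epirubicin it was 6.83, 6.81 and 6.32 at 1 d, 6.11, 6.61 and 7.03 at 3 d and 6.62, 6.47 and 6.59 at 5 d, against 5.39, 5.78 and 6.31 in the lowest, median and highest control rat. Of the 9 treated values, 8 lay above every control rat. The change was 0.81 (SE 0.09), with an adjusted p of 1.41e-07 from limma.

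After doxorubicin Rps27l was 6.21, 6.89 and 6.21 at 1 d, 5.80, 6.47 and 6.56 at 3 d and 6.57, 6.15 and 6.48 at 5 d, and the change was 0.58 (SE 0.10, limma adjusted p = 0.000121). After daunorubicin it was 6.37, 6.02 and 6.14 at 1 d, 6.58, 5.64 and 6.41 at 3 d and 6.37, 6.61 and 6.42 at 5 d, with a change of 0.50 (SE 0.11, limma adjusted p = 0.00601). Both groups overlapped the controls. After idarubicin, at the lowest dose, it was 5.18, 6.09 and 6.44 in the lowest, median and highest of 9 rats, with a change of 0.19 (SE 0.11, limma adjusted p = 0.902), which did not pass. The call after daunorubicin was lost when any of 5 treated rats was left out (3 d replicates 1 and 3, 5 d replicates 1, 2 and 3). Against control rats of the treated rats' own studies alone, the change of Rps27l was 0.51 after epirubicin (6 treated and 2 control rats, limma adjusted p = 0.407). It was 0.58 after doxorubicin (9 treated and 6 control rats, limma adjusted p = 0.0463) and 0.26 after daunorubicin (3 treated rats and 1 control rat, which is assumed to vary like the others, limma adjusted p = 0.768). None of these passed.

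Rps27l rose in 2 further profiles. After mitoxantrone (2 mg/kg intravenously in saline), another topoisomerase II poison, it was 6.05, 6.31 and 6.59 in the lowest, median and highest of 9 rats, against the same 22 controls, and the change was 0.58 (SE 0.09, limma adjusted p = 5.05e-05). After cyclophosphamide (25 mg/kg in water by gavage), an alkylating agent, it was 6.11, 6.32 and 6.26 at 3 d and 5.97, 6.81 and 6.56 at 5 d, against 5.09, 5.76 and 6.18 in the lowest, median and highest of 19 control rats. The change was 0.63 (SE 0.13, limma adjusted p = 0.00162). Rps27l was the only member called in each of these 2 profiles, where 1.58% and 3.38% of all genes were called higher. In the 5 profiles with a call the groups overlapped, since each treated group had a rat at or below the highest control. Over all 95 profiles its change was above 0 in 37 and below 0 in 58, and it ran between -0.47 and 0.81.

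**Figure D3:**
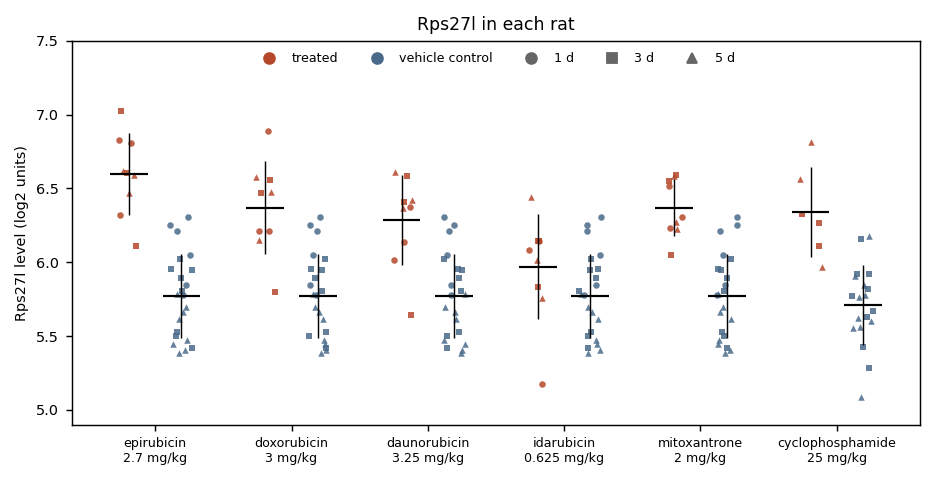
Level of Rps27l in each heart (log2 units) after the anthracyclines, mitoxantrone and cyclophosphamide (left of each pair, treated) and in matched vehicle controls (right), with symbols for the duration and black lines for the mean ± SD. Epirubicin rats sit between 6.11 and 7.03 and intravenous saline controls between 5.39 and 6.31; the first 5 pairs show the same 22 controls.

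Among the other members, doxorubicin had 6 called higher and 1 lower of 46 (all genes 4.37% and 2.76%), with a median change of 0.07 in the members and 0.003 in all genes. Rps9, a core protein of the small subunit, was 12.16, 12.33 and 12.67 in the lowest, median and highest treated rat, against 11.89, 12.12 and 12.31 in control rats (change 0.25, SE 0.05, limma adjusted p = 0.000686). Rpl19, Rpl12, Rps3 and Rpl23 rose by 0.17 to 0.19. Rpl12 sits in the stalk base that recruits elongation factors, and Rps3 lines the mRNA entry channel. Of the 14 measured translation genes outside the rule, 3 rose and 0 fell, with changes of 0.26 for the elongation factor Eef2, 0.35 for Eef1a1 and 0.25 for the nucleosome assembly protein Nap1l1. Without the arrays that stood apart, 3 members were called after doxorubicin. Leaving out single treated rats gave 3 (3 d replicate 2), 4 (1 d replicate 3, 5 d replicate 2 or 5 d replicate 3) or 11 (1 d replicate 1).

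Epirubicin had 3 called higher and 1 lower (all genes 6.79% and 5.02%), with a member median of 0.03. Rpl19 was 13.00, 13.15 and 13.28 in the lowest, median and highest treated rat, against 12.71, 12.95 and 13.07 in control rats, and rose by 0.21 (SE 0.04, limma adjusted p = 0.000275). Rpl7a rose by 0.16. In these hearts 5 of 40 ribosome biogenesis genes rose and 0 fell, among them Rrn3, the initiation factor of RNA polymerase I (0.30), and the nucleolar protein Ncl (0.26). Of the mitochondrial ribosomal protein genes, 3 rose and 10 fell. Daunorubicin had 1 called higher and 0 lower (all genes 0.401% and 0.492%) and idarubicin 0 in either direction (all genes 0.0141% and 0.26%), with member medians of -0.01 and -0.02. Markers of other cells moved in the same rats. Of 5 red blood cell genes 4 were lower after epirubicin, 4 after doxorubicin, 3 after daunorubicin and 3 after idarubicin, and the mean level of the list was 5.71 to 7.79 after epirubicin and 5.85 to 8.70 after doxorubicin, against 8.03 to 9.40 in control rats. After epirubicin 3 of 8 macrophage genes were higher and 1 was lower, with list means of 7.21 to 8.06 against 6.98 to 7.53 in control rats. In those hearts 3 of 8 fibroblast and matrix genes, 2 of 7 endothelial genes and 2 of 8 lymphocyte genes were also lower. Their part in the results was not tested.

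Rpl3 and Rpl3l, the core protein next to the catalytic centre and its muscle paralog, changed in opposite directions in several profiles. After sulindac, an inhibitor of cyclooxygenases, Rpl3 was 11.95, 12.15 and 11.99 at 3 d and 12.14 and 12.01 at 5 d, against 11.24, 11.40 and 11.55 in the lowest, median and highest of 19 control rats. Every treated rat lay above every control rat. Rpl3 rose by 0.65 (SE 0.06, limma adjusted p = 1.02e-08). In the same hearts Rpl3l was 10.98, 10.70 and 10.85 at 3 d and 10.16 and 10.90 at 5 d, against 11.10, 11.29 and 11.61 in control rats. Here every treated rat lay below every control rat, and Rpl3l fell by 0.66 (SE 0.10, limma adjusted p = 1.83e-05).

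After isoprenaline at 2 mg/kg, the agonist of beta-adrenergic receptors, Rpl3 was 11.58, 11.49 and 12.98 at 1 d, 11.52 and 12.81 at 3 d and 11.48, 12.09 and 12.05 at 5 d, against 11.07, 11.19 and 11.71 in the lowest, median and highest of 9 control rats. Rpl3l in the same rats, in the same order, was 11.20, 11.18 and 10.15 at 1 d, 11.17 and 10.07 at 3 d and 10.88, 10.27 and 10.69 at 5 d, against 11.20, 11.31 and 11.48 in control rats. The rat with the highest Rpl3 at 1 d and the one at 3 d had the lowest Rpl3l at their time. The groups overlapped for both genes, and 4 treated rats had Rpl3 levels within the control range. Neither change passed the threshold, with 0.76 for Rpl3 (SE 0.20, limma adjusted p = 0.0244) and -0.62 for Rpl3l (SE 0.16, limma adjusted p = 0.0186). No member was called after isoprenaline (all genes 1.8% higher and 2.14% lower), and the median change was 0.13 in the members and -0.01 in all genes. Without 1 treated rat (3 d replicate 1) 1 member was called, and with controls of every campaign 2 were, Rpl3 and Rpl3l.

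At 4.2 mg/kg of isoprenaline, a profile named after its values had been seen, Rpl3 was 12.88, 11.98 and 12.99 at 3 d and 12.42 and 11.82 at 5 d, against 11.05, 11.44 and 11.70 in the lowest, median and highest of 4 control rats. Rpl3l was 10.03, 11.47 and 10.56 at 3 d and 10.27 and 11.07 at 5 d, against 11.37, 11.51 and 11.66. All 5 treated rats lay above the controls for Rpl3, and 4 of 5 lay below them for Rpl3l. The changes were 1.00 for Rpl3 (limma adjusted p = 0.0544) and -0.83 for Rpl3l (limma adjusted p = 0.0976), and neither passed. At 2 mg/kg, 4 of 8 fibroblast and matrix genes were called higher, and the mean of that list was 11.36 to 12.82 in treated rats against 11.31 to 11.63 in control rats, and 1 of 8 macrophage genes was called higher, with list means of 7.83 to 9.02 against 7.27 to 7.96 in control rats. Of 12 heart muscle genes 1 was called lower and 0 higher, with list means of 13.30 to 13.66 in treated rats against 13.67 to 13.79 in control rats. The part of these 3 lists in the values of Rpl3 and Rpl3l was not tested.

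Rpl3l also fell after epirubicin and doxorubicin. After epirubicin it was 11.23, 10.78 and 10.62 at 1 d, 10.98, 10.96 and 11.04 at 3 d and 10.36, 10.81 and 10.38 at 5 d, against 10.76, 11.38 and 11.61 in the lowest, median and highest of 22 control rats (change -0.54, SE 0.09, limma adjusted p = 3.48e-05). After doxorubicin it was 11.47, 11.22 and 10.29 at 1 d, 10.96, 9.92 and 11.05 at 3 d and 11.00, 10.73 and 11.03 at 5 d (change -0.48, SE 0.12, limma adjusted p = 0.00613). The 2 doxorubicin rats with the lowest Rpl3l, at 10.29 and 9.92, had the highest Rpl3, at 12.48 and 12.77. Over the group Rpl3 changed by 0.41 after doxorubicin (SE 0.11, adjusted p = 0.0124) and by 0.15 after epirubicin (adjusted p = 0.199), and neither passed in limma. Without the arrays that stood apart, the adjusted p of Rpl3l after doxorubicin was 0.0127. Against the few control rats of their own studies the change of Rpl3l was -0.31 after epirubicin (limma adjusted p = 0.471) and -0.51 after doxorubicin (limma adjusted p = 0.161), and neither passed. Of 12 heart muscle genes 3 were called lower and 1 higher after epirubicin, and the same counts held after doxorubicin. After sulindac 1 was lower and 1 higher, and after acrolein 0 were lower and 2 higher. The part of these heart muscle genes in the changes of Rpl3l was not tested.

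After allylamine at 75 mg/kg, which the body turns into acrolein, Rpl3 was 11.71, 12.17 and 12.36 at 3 d and 12.29 and 11.71 at 5 d, against 10.97, 11.48 and 11.94 in the lowest, median and highest of 19 control rats (change 0.60, SE 0.12, limma adjusted p = 0.00309). After acrolein itself Rpl3 was 11.46, 11.77 and 12.14 in the lowest, median and highest of 8 rats, against 10.97, 11.46 and 11.94 in 28 control rats, and rose by 0.34 (SE 0.09, limma adjusted p = 0.00395). The groups overlapped in both profiles. The 19 control rats of allylamine were among the 28 of acrolein, so the 2 rises do not replicate each other. Rpl3l was 10.77, 11.13 and 11.40 after acrolein, against 10.79, 11.40 and 11.67 in control rats, and fell by 0.27 (limma adjusted p = 0.0066). After allylamine its change of -0.25 did not pass (limma adjusted p = 0.237). After tacrolimus (134 mg/kg in CMC), the calcineurin inhibitor, Rpl3 was 11.68, 11.87 and 12.01 in the lowest, median and highest of 6 rats, against 11.02, 11.36 and 11.82 in 18 control rats, and rose by 0.47 (SE 0.08, limma adjusted p = 0.000151).

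**Figure D4:**
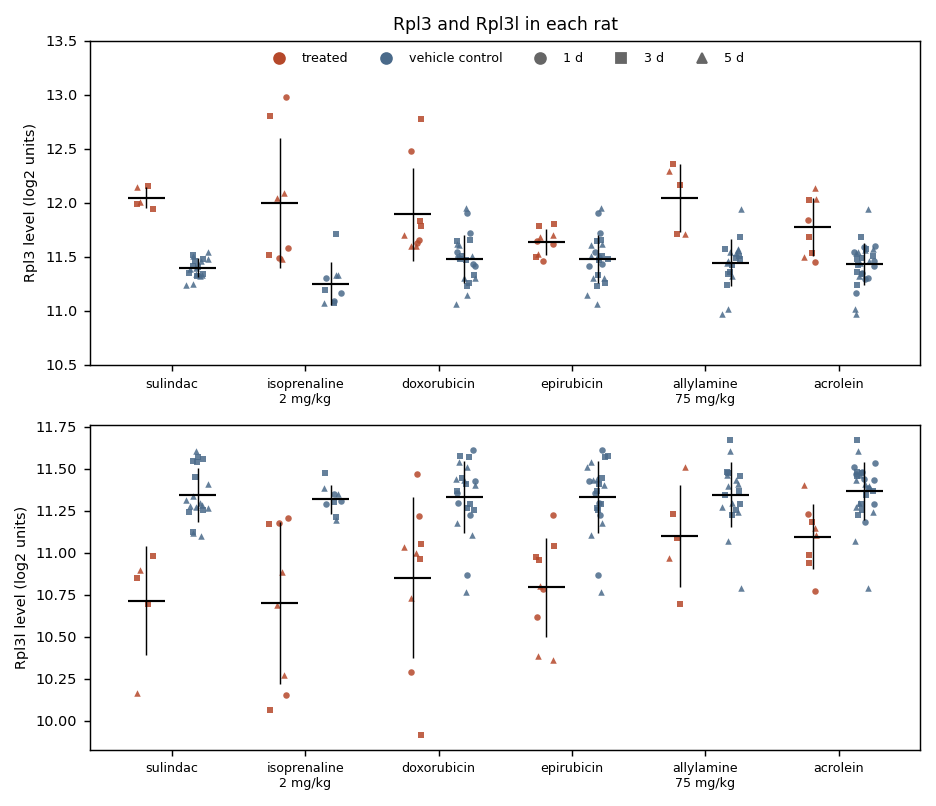
Level of Rpl3 (upper panel) and Rpl3l (lower panel) in each heart, in log2 units, for 6 profiles, with treated rats left and matched vehicle controls right, symbols for the duration, and black lines for the mean ± SD. After sulindac all 5 treated rats lie above the controls for Rpl3 and below them for Rpl3l; after isoprenaline the treated rats spread between 11.48 and 12.98 for Rpl3.

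Over the 95 profiles the changes of Rpl3 and Rpl3l had opposite signs in 63, with Rpl3 up and Rpl3l down in 40 and the reverse in 23. The Pearson correlation of the changes was -0.54 and the Spearman correlation -0.43, over profiles that partly share controls. Both changes exceeded 0.3 in size in 8 profiles, in 7 of them with opposite signs. For the other pairs of a core gene and its paralog among the members, the correlation was 0.46 for Rpl7 and Rpl7l1, 0.07 for Rpl39 and Rpl39l1 and -0.27 for Rpl26 and Rpl26l1, and in none of them did a profile have both changes over 0.3 in size. In control rats Rpl39, Rpl39l1 and Rpl26l1 had mean levels of 6.96, 4.45 and 5.29, against 11.38 for Rpl3 and 11.27 for Rpl3l. Dim probe sets limit what can be seen, so the pairs that hold them are no contrast to Rpl3 and Rpl3l.

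**Figure D5:**
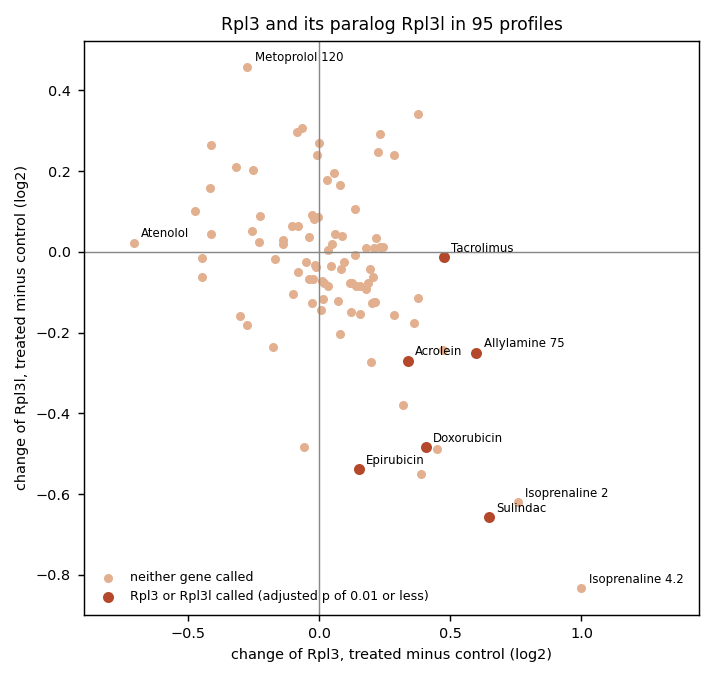
Change of Rpl3 (horizontal) and of Rpl3l (vertical) in each of 95 profiles, treated minus vehicle control, in log2 units; dark points are profiles in which either gene was called. Sulindac (0.65 and -0.66) lies in the lower right with both doses of isoprenaline, epirubicin and doxorubicin, and 63 of the 95 points lie in the quadrants of opposite sign.

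In the control rats alone, Rpl3 and Rpl3l correlated at r = -0.28 as deposited (n = 217, two-sided permutation test, p = 0.00064, adjusted over 9 relations 0.000823), while Spearman's rho was -0.03 (permutation p = 0.683, adjusted p = 0.683). Without the 2 rats farthest from the median of Rpl3, r was -0.34. Centred on vehicle, route, duration and campaign, r was -0.37 in 212 rats (permutation p = 1e-05, the smallest that 100000 resamples can give, adjusted p = 3e-05) and rho was -0.20 (permutation p = 0.00308, adjusted p = 0.00924). Without the arrays that stood apart, a subset chosen after seeing the data, r was -0.21 in 203 rats (permutation p = 0.00301, adjusted p = 0.00339) and -0.15 without the 2 farthest rats, and rho was -0.17 (permutation p = 0.0144, adjusted p = 0.0324). The permutations moved values freely over all rats, although rats share studies and hybridisation batches. The p-values can therefore be too small, and these correlations are a description. Within campaigns the centred r was -0.32 (n = 133), 0.11 (n = 9), -0.39 (n = 34), -0.34 (n = 18) and -0.51 (n = 18), so the sign turned in the smallest campaign. The 9 relations were 3 pairs, each in 3 overlapping versions of the values. For Rpl26 and the dim Rpl26l1, r was -0.36 as deposited, -0.33 centred and -0.14 without the arrays that stood apart. For Rpl7 and Rpl7l1 these values were 0.33, 0.56 and 0.46. A negative correlation in control rats was thus not particular to Rpl3 and Rpl3l. The 3 control rats with the lowest Rpl3l, at 8.44, 8.97 and 9.71, had Rpl3 levels of 12.65, 12.56 and 12.41. The rat with the next lowest Rpl3l, at 9.75, went the other way. Its Rpl3, at 9.73, was the lowest of all control rats. Its array stood apart, with a correlation of 0.92 to the mean array. The heart muscle genes on it had a median of 12.51, against 13.90 in the median control rat. The arrays of the first 3 rats stood apart as well, with correlations of 0.97, 0.97 and 0.98. In the first 3 rats the 4 measured adipocyte genes had medians of 9.31, 7.80 and 7.83, and in the next rat 6.24. The median over all control rats was 4.94. The part of these adipocyte genes in the values was not tested.

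Sulindac had the most called members of any profile, with 14 higher and 1 lower (all genes 6.66% and 5.26%), and a median change of 0.16 in the members against -0.01 in all genes. The mean over the 46 members was 11.18, 11.05 and 11.07 at 3 d and 11.21 and 11.20 at 5 d, against 10.91, 10.98 and 11.13 in the lowest, median and highest control rat. Besides Rpl3, the largest rises were those of Rps13 (0.46, SE 0.10, limma adjusted p = 0.0021), Rps28 (0.30, SE 0.06, limma adjusted p = 0.00069), Rps23 (0.28, SE 0.05, limma adjusted p = 0.000478) and Rpl23 (0.27, SE 0.06, limma adjusted p = 0.00148). Rps23 lies at the decoding centre and Rps28 at the mRNA exit of the small subunit. Rps28 was 11.85, 12.03 and 12.18 in the lowest, median and highest treated rat, against 11.54, 11.74 and 11.85 in control rats, and Rps13, whose probe set is dim, was 6.33, 6.33 and 5.95 at 3 d and 5.82 and 6.08 at 5 d, against 5.26, 5.60 and 6.13. The remaining 9 higher calls had changes of 0.20 to 0.25. The treated and control rats did not overlap in Rpl3, Rpl3l, Rpl7a, Rpl19, Rpl23, Rps6, Rps23 and Rps28, which were called, and in Rps29, which was not. Genes outside the members were not checked for such a lack of overlap, so this list is a description.

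Other genes of translation also rose after sulindac. Of 14 translation genes outside the rule 4 rose and 0 fell, namely Rplp0, the stalk protein (0.31), and the elongation factor subunits Eef1a1 (0.32), Eef1b2 (0.39) and Eef1d (0.32). Of 40 ribosome biogenesis genes 3 rose and 0 fell, namely Gnl3 (0.54), Nob1 (0.44) and Ncl (0.36). This share of higher calls was near the 6.66% over all genes. Of 73 mitochondrial ribosomal protein genes 27 fell and 0 rose, with a median change of -0.26. All 8 macrophage genes rose with a median change of 1.55, and the mean of that list was 8.49 to 9.15 in treated rats against 6.86 to 7.65 in control rats. All 4 measured neutrophil genes rose as well, with list means of 7.36 to 9.22 in treated rats against 4.97 to 5.92 in control rats, while 5 of 8 fibroblast and matrix genes fell and 1 rose, and 3 of 7 endothelial genes fell and 1 rose. The part of these cell markers in the members' rise was not tested. Without single treated rats the count of called members was 6 (5 d replicate 1), 7 (5 d replicate 2) or 9 (3 d replicate 2).

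Guanethidine, a blocker of sympathetic nerve endings, was the described profile with the most members lower. It had 9 members lower and 0 higher (all genes 6.67% and 1.12%), and the median change was -0.22 in the members and -0.07 in all genes. Rps3 was 11.86, 11.84 and 11.94 at 3 d and 11.98, 11.97 and 12.12 at 5 d, against 12.24, 12.31 and 12.55 in the lowest, median and highest of 11 control rats. Every treated rat lay below every control rat, and Rps3 fell by 0.39 (SE 0.06, limma adjusted p = 0.000414). Rpl12 was 11.49, 11.62 and 11.53 at 3 d and 11.61, 11.52 and 12.22 at 5 d, against 11.84, 12.06 and 12.37, and fell by 0.40 (SE 0.10, limma adjusted p = 0.008). Here 1 treated rat lay within the control range. Rpl18, Rpl24, Rpl14, Rpl35a, Rpl7, Rpl41 and Rpl23 fell by 0.25 to 0.30, and Rpl23 also showed no overlap. Genes outside the members were not checked for a lack of overlap, so for Rps3 and Rpl23 it is a description. Of the translation genes outside the rule Rplp0, Nap1l1 and Eef1d fell, with changes between -0.39 and -0.35, and 0 rose. A new quantile normalization of all arrays left 0 members called and a median of -0.04. With study as a random block 1 member was called, and without 2 control arrays that stood apart 8 were. In these hearts 3 of 7 endothelial genes were lower, with list means of 9.40 to 9.63 in treated rats against 9.56 to 9.97 in control rats. Of 8 fibroblast and matrix genes 2 were lower, with list means of 10.88 to 11.90 against 11.37 to 12.65 in control rats. Of 8 macrophage genes 1 was lower (median change of the list -0.44), as was 1 of 5 red blood cell genes, while no liver gene was called, with list means of 5.30 to 5.55 in treated rats against 5.16 to 10.59 in control rats. The part of these markers in the members' changes was not tested. Leaving out single rats gave 1 to 17 calls, and the count moved by over 1.5 times in 14 of 17 such fits, with 17 when a treated rat of 5 d (replicate 3), whose mean over the members was 10.95 and the highest of the group, was left out.

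Acrolein, a reactive aldehyde, had 5 members higher and 1 lower (all genes 4.48% and 7.5%), with a member median of 0.12 and 0.001 in all genes. Rpl23 was 12.15, 12.32 and 12.55 in the lowest, median and highest treated rat, against 11.90, 12.15 and 12.34 in control rats (change 0.20, SE 0.05, limma adjusted p = 0.00166). Rpl13a, Rps28 and Rpl41 rose by 0.14 to 0.18. The mitochondrial ribosomal protein genes moved the other way, with 50 of 73 lower and 0 higher and a median of -0.26. Of the ribosome biogenesis genes Ncl and Polr1a rose, while Nhp2, Tsr1 and Utp20 fell. In the same rats 5 of 8 macrophage genes rose, with list means of 7.36 to 8.24 in treated rats against 6.87 to 7.56 in control rats, and 2 of 4 neutrophil genes rose, with list means of 5.56 to 8.09 against 4.97 to 5.99 in control rats. Their part in the members' changes was not tested. Without single treated rats the count was 1 (3 d replicate 1 or 5 d replicate 2), 2 (5 d replicate 1) or 3 (3 d replicate 2). With the controls of every campaign, 0 members were called and the median was 0.19, and with study as a random block 1 member was called.

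Allylamine at 75 mg/kg had 5 members higher and 0 lower (all genes 1.03% and 0.795%), with a member median of 0.22 and 0.004 in all genes. Rpl27a was 12.66, 12.91 and 13.00 in the lowest, median and highest of 5 treated rats, against 12.39, 12.57 and 12.68 in 19 control rats, and rose by 0.31 (SE 0.06, limma adjusted p = 0.00249). Rps28, Rpl4 and Rps24 rose by 0.27 to 0.29. With study as a random block 1 member was called. In the same hearts 3 of 8 macrophage genes rose, with list means of 7.29 to 8.31 in treated rats against 6.88 to 7.56 in control rats. Of 5 red blood cell genes 2 fell, with list means of 7.94 to 8.21 against 7.95 to 9.22 in control rats. Their part in the members' changes was not tested. Leaving out single rats gave 0 to 15 calls, with 0 when any of 3 treated rats was left out (3 d replicates 2 and 3, 5 d replicate 1) and 15 without a treated rat of 3 d (replicate 1). It was 3 without the other treated rat of 5 d or without any of 8 control rats. At 40 mg/kg in corn oil, a profile with other controls, no member was called and the member median was 0.01. The doses and vehicles differ, and no comparison between them was made.

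The other 4 profiles with called members were those of chlorpropamide, tacrolimus, valproic acid and dexamethasone. Chlorpropamide (269 mg/kg in CMC), a sulfonylurea, had 4 members lower (all genes 2.89%), namely Rpl12, Rpl6, Rpl35a and Rpl27a, with changes between -0.30 and -0.21. None of the 4 passed after a new quantile normalization, where the changes were -0.15 for Rpl12, -0.12 for Rpl6, -0.08 for Rpl35a and -0.08 for Rpl27a. In the values as deposited, its Rpl12 was 12.24, 12.23 and 12.04 at 1 d, 11.47, 11.61 and 11.47 at 3 d and 11.57, 11.79 and 11.65 at 5 d. The control rats had 12.09 to 12.30 at 1 d (n = 9), 11.84 to 12.37 at 3 d (n = 6) and 11.99 to 12.12 at 5 d (n = 5). All treated rats of 3 and 5 d lay below their controls, and 1 of 3 at 1 d did. The rats of 1 d were of another extraction campaign than those of 3 and 5 d, so duration and campaign cannot be told apart in this difference. Tacrolimus had 4 members higher (all genes 5.46%), with Rps15, Rps15a and Rps6 rising by 0.20 to 0.21 besides Rpl3. Valproic acid (1500 mg/kg in water) had 3 members higher (all genes 1.79%), namely Rpl7a, Rps28 and Rpl23, with changes of 0.21 to 0.23. Dexamethasone (1 mg/kg in corn oil), a glucocorticoid, had 1 member lower (all genes 8.32%), Rps15, which fell by 0.18. Rps4y2, the member of largest spread, was called in no profile, and its changes ran between -0.76 after tacrine and 0.82 after tacrolimus (limma adjusted p = 0.0136).

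No member's change was called as different between durations. In the 10 profiles described most closely, the interaction of treatment and duration called 0 members, where 0.095% of all tests over genes were called by limma. The lowest adjusted p was 0.0288, for Rps24 after epirubicin. Rps27l changed by 0.58 at 1 d, 0.82 at 3 d and 1.00 at 5 d after epirubicin, by 0.36, 0.52 and 0.84 at 1, 3 and 5 d after doxorubicin, and by 0.10, 0.45 and 0.91 after daunorubicin. The adjusted p of these differences between durations was 0.738, 0.625 and 0.253 for the 3 compounds in that order. There were 3 rats for each of these compounds and durations. All 3 series use the same 22 control rats, so they do not replicate each other. Treated levels after epirubicin were 6.83, 6.81 and 6.32 at 1 d and 6.62, 6.47 and 6.59 at 5 d. Those after doxorubicin were 6.21, 6.89 and 6.21 at 1 d and 6.57, 6.15 and 6.48 at 5 d. In both, the larger change at 5 d came with lower control levels and not with higher treated means. After daunorubicin the treated levels were 6.37, 6.02 and 6.14 at 1 d and 6.37, 6.61 and 6.42 at 5 d.

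Between control rats of 1 d (n = 52) and those of 3 and 5 d (n = 114), 1 member was higher and 0 lower (all genes 1.55% and 0.288%). Rpl41, a very short basic protein, was 11.83, 11.96 and 12.16 in the lowest, median and highest rat of 1 d, against 11.57, 11.93 and 12.10 in rats of 3 and 5 d, with a difference of 0.05 (limma adjusted p = 0.00725). The median difference was 0.04 over the members and 0.004 over all genes, with 43 members above 0 and 3 below. Hearts of 1 d were taken in the afternoon and the others in the morning, so duration and time of day cannot be told apart. No member was called after a new quantile normalization or without the arrays that stood apart.

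Ribosomal protein genes that share a probe set with another symbol fell outside the rule. The 35 such probe sets had median changes that differed from those of the members by at most 0.04 in any of the 95 profiles.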

How the data were processed

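The authors deposited log2 expression values of Affymetrix rat arrays, 1 per probe set and array, made with RMA according to the submitters' processing notes, of which no version is given in the sources used here, while frma and frmaTools are the packages named by the paper's methods. Such methods usually bring arrays to a like distribution, so a change shared by most genes would not be seen, and arrays give no read depth, so the number of rats limits the precision. The values were used as deposited. Of 31099 probe sets, 20832 had 1 symbol, 436 several and 9831 none, and those with 1 symbol gave 14218 genes, each by its probe set of highest mean. Rats with 2 arrays (22) entered with the earlier extraction, so that n counts rats, which the labels give as separate animals. A gap of over 30 days between extractions began a new campaign. The vehicle, route or duration of 12 control rats was not settled by their labels, and they entered no comparison.

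Each profile was fitted by linear models with duration and campaign combined into 1 factor, moderated by eBayes (limma 3.58.1, R version 4.3.3), and p was adjusted by Benjamini-Hochberg over all genes. Python 3.11.15, pandas 2.3.3, numpy 2.4.6 and matplotlib 3.10.9 did the rest. The procedure was tested on simulated data. Arrays stood apart at a correlation under 0.95 to the mean array or where the adipocyte genes had a median above 7 or the liver genes above 8.

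Named were, in each closely described profile, up to 5 higher and 5 lower called members of largest change, the paralogs and their partners, the 10 members called most often, the 3 of highest and of lowest level and of largest SD, and the 3 genes most like the 2 members called most often. Other members and the profiles outside the 10 were named after values had been seen. The members, lists and profiles were chosen with earlier results of these data known. Alternatives were controls of every campaign or of the own study, a fold change of 1.5 in addition, the mean over probe sets, the upper 60% of genes by mean, quantile normalization, no arrays that stood apart, the methods' t-test, a random block for study or for hybridisation batch, and each rat left out in turn. Correlations without arrays that stood apart were added after the data had been seen.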

Additional observations from a re-analysis of the deposited data

Results flagged for a closer look

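In 9 groups of 4 to 10 control rats, 4 measures were checked for a rat far from the others of its group, and 3 of these 36 checks found one; chance alone would be expected to find about 1 in 20. Rps27l was 7.0077 in 1 corn oil control rat of 1 d (replicate 7), whereas the other rats of this group of 10 had 5.3029 to 6.2102. Rpl3l was 11.5462 in 1 saline mini-pump control rat of 1 d (replicate 4), and the other rats of this group of 5 had 11.2887 to 11.3517. The mean over the 46 members was 10.9302 in 1 saline mini-pump control rat of 3 d (replicate 1), with 11.0176 to 11.0359 in the others of this group of 5.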

How the results depend on the processing

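No called change of a member turned its sign under any alternative that was run. Over all profiles, 61 calls became 5 with a fold change of 1.5 in addition, 161 with controls of every campaign and 100 with the methods' t-test; 42 of the 61 calls were kept under a new quantile normalization, 54 without arrays that stood apart and 58 with the t-test. With the added fold change, 0 members were called after doxorubicin, daunorubicin, guanethidine and acrolein, 1 after epirubicin and allylamine, and 2 after sulindac. With controls of every campaign, 0 were called after acrolein (median 0.1938) and allylamine (median 0.3079), 2 after isoprenaline, 23 after sulindac and 28 after guanethidine. With controls of the own study, 0 were called after doxorubicin, daunorubicin (median -0.0942) and epirubicin (median -0.027, against 0.0316 with all matched controls), with 6, 1 and 2 control rats left in that order. With quantile normalization, 0 were called after guanethidine (median -0.0389), 7 after epirubicin, 8 after allylamine and 13 after acrolein, and the isoprenaline median was 0.1948. With the t-test, 0 were called after daunorubicin, 9 after allylamine and 13 after acrolein. With study as a random block, 0 were called after daunorubicin, 1 each after guanethidine, acrolein and allylamine, and 24 after sulindac. Among the upper 60% of genes, which do not hold Rps27l, 0 were called after daunorubicin. Without arrays that stood apart, 3 were called after doxorubicin. Rpl41 in control rats was lost with quantile normalization (0 called) and without arrays that stood apart (0 called). The cause was not tested.

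With each rat left out, called members numbered 1 to 8 after acrolein, 0 to 15 after allylamine, 0 to 1 after daunorubicin, 3 to 11 after doxorubicin, 3 to 6 after epirubicin, 1 to 17 after guanethidine, 0 to 1 after isoprenaline, 6 to 18 after sulindac and 0 after idarubicin and rapamycin; the isoprenaline median was 0.0755 to 0.185. The count moved by over 1.5 times in 14 of 17 fits for guanethidine, 13 of 24 for allylamine and 5 of 31 for daunorubicin, in which it became 0. Of 47 calls, 13 were kept in every such fit: Rpl3, Rpl3l, Rpl23, Rps23 and Rps28 after sulindac, Rpl19 and Rps27l after doxorubicin and epirubicin, Rpl3l after epirubicin, Rps9 after doxorubicin, Rpl23 after acrolein and Rps3 after guanethidine. No paired analysis was possible because the labels give the rats no replicate numbers that are shared between treated and control groups. The number of rats and dim probe sets, such as Rps27l, Rps13 and Rpl30, limit what can be seen.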

Other observations

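The 12 control rats that entered no comparison had a mean over the 46 members of 10.71, 10.96 and 11.09 in the lowest, median and highest rat. Their lowest, median and highest levels were 10.86, 11.39 and 11.94 for Rpl3, 10.53, 11.34 and 11.50 for Rpl3l, and 5.05, 5.80 and 6.51 for Rps27l.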
